A study of Danio rerio with 18 samples.

Results

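The complement genes c4, c4b and c6.2 were followed in zebrafish (Danio rerio) brain after spinal cord injury. The members were selected by gene symbol: each of the 3 genes has 1 probe set on the Affymetrix zebrafish array, out of 8793 genes that the array's annotation names singly. They were proposed because their signals were high in transected fish 11 d after surgery, so the 11 d difference between transected and sham fish is described below and carries no test. RNA came from the NMLF, the midbrain nucleus of the medial longitudinal fascicle, whose neurons send axons into the spinal cord that can regrow in zebrafish once the cord has been cut. The 6 groups, of 3 arrays each, were transected and sham-operated fish at 4 h, 12 h and 11 d after surgery, and all tissue was cut out of the brain by laser capture microdissection. The labels give no strain, age, sex or genotype, and do not say whether samples came from separate fish or from pooled tissue, so p-values measure only the spread between these samples. In such bulk tissue, more cells of a type cannot be told apart from more RNA per cell.

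Complement is a cascade of secreted proteins that marks particles and damaged cells for removal, with the liver as its main source and cells of the injured brain as a further one. C4 joins the classical and lectin pathways: it is cut after C1 or mannose-binding lectin has bound a target, and its larger fragment attaches covalently to that target and helps form the enzyme that cuts C3. C6 acts at the other end, where it joins C5b so that C7, C8 and C9 can be added to the membrane attack complex. Zebrafish have more than 1 gene for C4 and for C6, and the RefSeq table used for names lists c6 as an older name of c6.2.

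Signals below were normalized between arrays and set to a floor of 16, under which values have no order, and group levels are geometric means. Within a group the correlation between arrays was 0.936 to 0.984 across 15502 tested probe sets. The 10 measured neuron markers were above the floor on all 18 arrays, among them snap25a and sncgb, so the tissue carried its labelled neural character, though none of these markers is particular to the NMLF. The GAPDH control's 3' signal over its 5' signal, a ratio that grows as RNA is shortened, was 3.15 to 5.40 on the 6 arrays at 12 h and 1.39 to 2.88 on the other arrays. The replicate 3 arrays at 11 d stood apart on the first principal component, scoring 28.3 (transected) and 20.1 (sham) against -43.0 to -28.8 for the other 4 arrays of that time. For the 3 members, some other complement genes and the number of probe sets called, 11 d results are therefore also given without both of them. The remaining 11 d results, those of the marker lists among them, are given only with these arrays included.

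In sham-operated fish c4b lay at or near the floor at every time, and in transected fish it stood clear of the floor at 12 h and 11 d but not at 4 h. At 4 h its signal was at the floor of 16 on all 3 transected arrays, against 18.5, 16 and 17.9 on the sham arrays. At 12 h it was 109, 46.6 and 44.3 in transected fish, against 16, 16 and 27.1 in sham fish. At 11 d it was 89.1, 206 and 166 in transected fish, against 16, 18.5 and 27.8 in sham fish. All transected arrays at 12 h and at 11 d were thus above all sham arrays of their time, as for 4.57% and 2.73% of all probe sets. The lowest of these 6 transected signals, 44.3, exceeded the highest of the 9 sham signals, 27.8. No share of all probe sets was computed for this joint separation, and the 11 d values chose the gene.

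**Figure D1:**
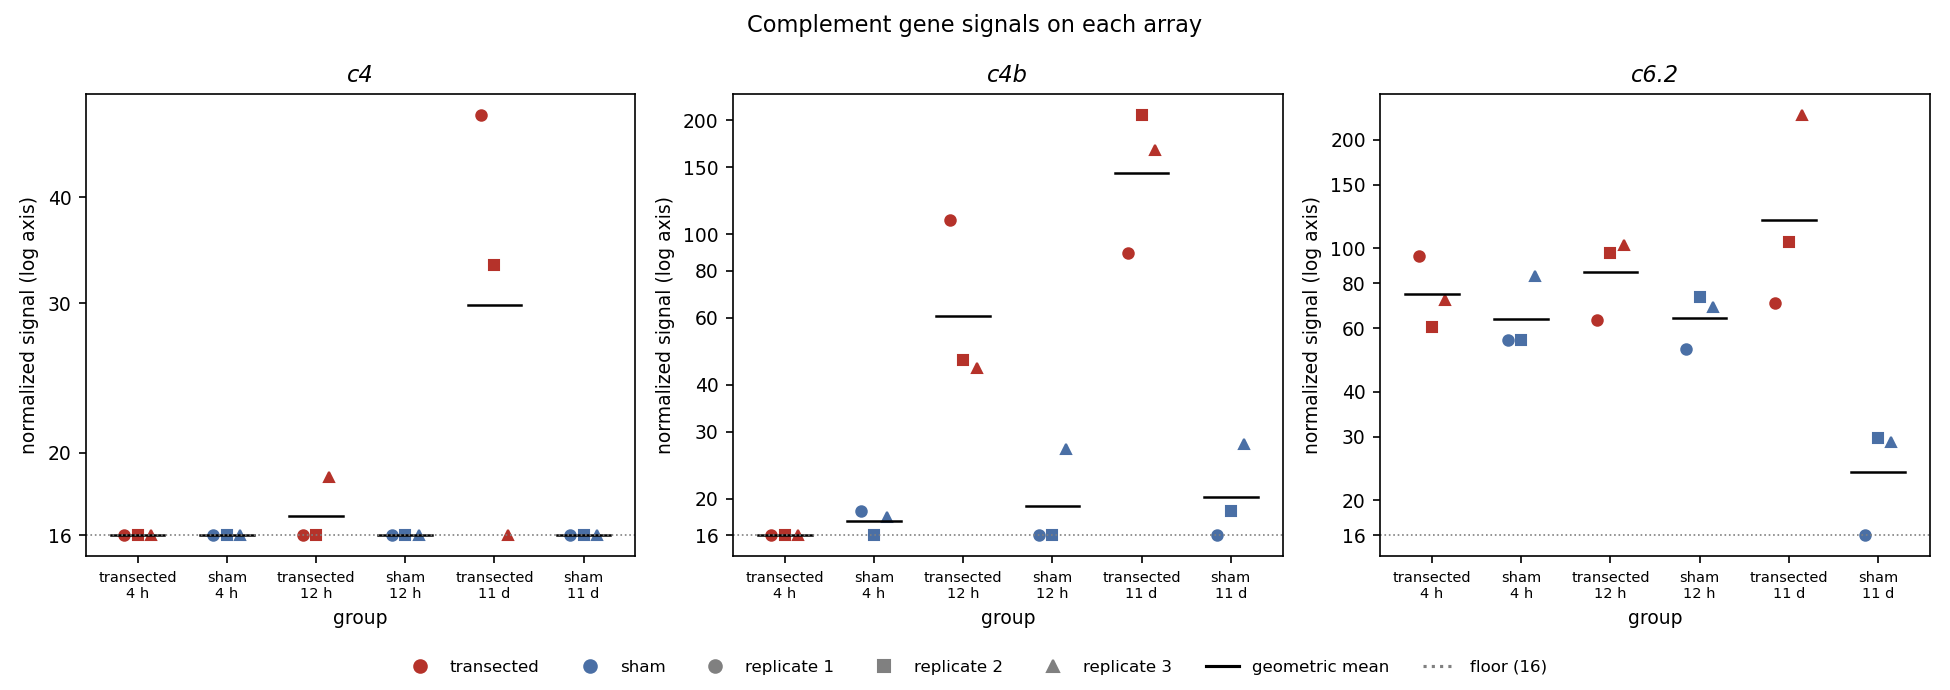
Normalized signal (log axis) of c4, c4b and c6.2 on each of the 18 arrays by group; red points are transected and blue points sham arrays, the symbol gives the replicate number, black bars are geometric means (n = 3) and the dotted line is the floor of 16. For c4b the transected arrays at 12 h (44.3 to 109) and 11 d (89.1 to 206) stand above every sham array, while for c6.2 the 11 d sham arrays (16 to 29.8) lie below the arrays of all other groups. The 11 d values chose the genes. Of all probe sets, 4.57% were higher without overlap at 12 h and 2.73% at 11 d, against sham arrays of the same time.

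Ordered by level, c4b averaged 145 in transected fish at 11 d, 60.7 in transected fish at 12 h, 20.2, 19.1 and 17.5 in sham fish at 11 d, 12 h and 4 h, and 16 in transected fish at 4 h. The SDs on the log2 scale were 0.63, 0.73, 0.41, 0.44, 0.11 and 0 in that order (n = 3 each). The 2 highest groups overlapped, since the lowest transected array at 11 d (89.1) was below the highest at 12 h (109). The lowest 4 groups also overlapped, with 7 of their 12 arrays at the floor.

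The comparison of transected with sham fish at 12 h asked whether c4b differed within the first day. Its log2 difference was 1.67 ± 0.37 (SE), a 3.19-fold higher signal in transected fish, and 2 of the 3 sham arrays were at the floor. With a floor of 32 the difference was 0.92. This did not pass over the whole table (limma adjusted p = 0.38), where 4 of 15502 probe sets passed, all higher, or 0.0258%. Ordered from the largest increase down, the difference ranked 6 among the 15502. All 3 transected arrays were above all 3 sham arrays, and of all probe sets 4.57% were higher on every transected than on every sham array at 12 h. Without transected replicate 1, which had the highest signal, the difference was 1.25 (adjusted p = 0.81).

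Between 4 h and 12 h c4b rose in transected fish, the 1 comparison of a member outside the 11 d arrays that passed. The signal averaged 60.7 at 12 h, at least 3.80-fold above the 4 h arrays, which were all at the floor (log2 difference 1.92 ± 0.37, limma adjusted p = 0.027, higher on 3 of 3 arrays, as were 9.24% of all probe sets without overlap). Over all probe sets 0.664% passed upward in this comparison and 1.23% in either direction. The call did not hold when a transected array at 4 h was left out (adjusted p = 0.088, 0.098 and 0.080 without replicates 1 to 3), nor without transected replicate 1 or 2 at 12 h (0.086 and 0.057), and it held without transected replicate 3 at 12 h (0.024). It was also lost with a floor of 32 (log2 difference 0.92, adjusted p = 0.22) and when only the 6 arrays compared were fitted (0.18). The GAPDH ratios were higher at 12 h than at 4 h in both arms. Over the same interval c4b in sham fish differed by 0.13 ± 0.37 (limma adjusted p = 1, 95% interval -0.68 to 0.93). In that comparison 0.0258% of probe sets passed. Of the sham arrays, 1 of 3 at 4 h and 2 of 3 at 12 h were at the floor, so the sham values say little about RNA quality. Whether RNA quality had a part in the c4b rise was not tested. The effect of transection at 12 h exceeded that at 4 h by 1.80 ± 0.53 on the log2 scale, which did not pass (limma adjusted p = 1). In this test of the difference, 0.0129% of probe sets passed.

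At 11 d the c4b difference was 2.85 ± 0.37 on the log2 scale, a 7.19-fold higher signal in transected fish, with 1 of 3 sham arrays at the floor. The size depended on the floor, and with a floor of 32 it was 2.18. Same-numbered arrays differed by 2.48, 3.48 and 2.58, and the value was 2.98 without the replicate 3 arrays of that time. With all arrays the difference ranked 9 among all probe sets, ordered from the largest increase down. For this comparison 0.0452% of probe sets passed in either direction and 2.73% were higher on all transected than on all sham arrays, and nothing is read from these shares because the 11 d values chose the gene. Transected fish had 2.39-fold more c4b signal at 11 d than at 12 h (log2 difference 1.26 ± 0.37, groups overlapping), while sham fish differed by 0.08 ± 0.37 between these times. Of the probe sets, 709 were higher on all transected arrays at 12 h and 423 at 11 d. c4b belonged to the 34 in both, 4.80% of the first set and 8.04% of the second. Its place among them is not read as a result, since the 11 d values chose the gene.

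**Figure D2:**
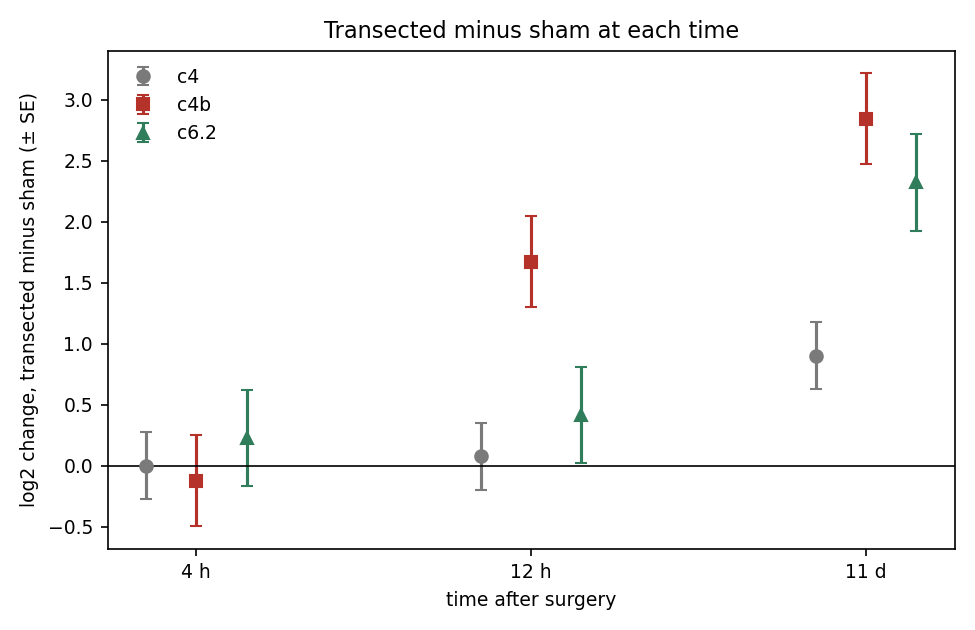
Log2 change, transected minus sham, of c4, c4b and c6.2 at 4 h, 12 h and 11 d; points are model estimates and bars are ± SE (3 arrays per group). At 12 h c4b stands at 1.67 while c4 and c6.2 are at 0.08 and 0.42; at 11 d, the comparison that chose the genes, they stand at 0.90 (c4), 2.85 (c4b) and 2.32 (c6.2).

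The other C4 gene, c4, was at the floor on 15 of 18 arrays, and all 3 arrays above it came from transected fish. At 4 h all 6 arrays were at 16. At 12 h the signal was 16, 16 and 18.7 in transected fish, against 16 on all 3 sham arrays. At 11 d it was 50.0, 33.3 and 16 in transected fish, against 16 on all 3 sham arrays. The gene was thus measurable above the floor on 2 of 3 transected arrays at 11 d, and replicate 3, which stood apart, was not one of them. Counted at 16, that array gives a transected mean of 29.9, 1.87-fold above the sham floor (log2 difference 0.90 ± 0.28). Since both arms hold arrays at the floor, this fold is not a lower bound.

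This c4 value depended on the floor and on the arrays kept. With a floor of 32 it was 0.23, since little signal is left above that line, and without both replicate 3 arrays at 11 d it was 1.35. The 12 h difference was 0.08 ± 0.28 (limma adjusted p = 1, 95% interval -0.52 to 0.67). Its SE pools the spread of all groups, which was largest in transected fish at 11 d (log2 SD 0.83). With only the 12 h arrays fitted the SE was 0.07. At 12 h all 3 sham and 2 of 3 transected arrays were at the floor. The interval thus does not measure the spread at 12 h and cannot bound a difference under the floor. On transected replicate 3 at 11 d the deposited c4 signal was 17.6, which normalization placed under the floor.

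The terminal-pathway gene c6.2 had another course: signals well above the floor in both arms at 4 h and 12 h, and at 11 d a high transected and a low sham group. At 4 h its signal was 95.3, 60.6 and 72.1 in transected fish, against 55.8, 55.6 and 83.9 in sham fish. At 12 h it was 63.3, 97.3 and 102 in transected fish, against 52.5, 73.3 and 68.9 in sham fish. The groups overlapped at both early times. At 11 d it was 70.8, 104 and 234 in transected fish, against 16, 29.8 and 29.0 in sham fish. These groups did not overlap, as for 2.73% of all probe sets upward, and the 11 d values chose the gene.

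At the early times transection made no difference to c6.2 that passed. The log2 difference was 0.23 ± 0.40 at 4 h (adjusted p = 1, 95% interval -0.63 to 1.08) and 0.42 ± 0.40 at 12 h (adjusted p = 1, -0.44 to 1.27), so a difference of 1 log2 unit lies within both intervals. With the replicate block the 4 h value was 0.23 ± 0.26, so the width of the 4 h interval depends on the fit. At 4 h 0 of 15502 probe sets passed, 0%, with 352 at an unadjusted p under 0.05. Between the early times no c6.2 difference passed in either arm (limma adjusted p = 1 for both). The 12 h minus 4 h difference was 0.20 ± 0.40 in transected fish (95% interval -0.66 to 1.06). In sham fish it was 0.01 ± 0.40 (-0.85 to 0.87).

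At 11 d the c6.2 difference was 2.32 ± 0.40, a 5.0-fold higher signal in transected fish, with same-numbered differences of 2.14, 1.81 and 3.02. Without both replicate 3 arrays of that time it was 1.98. Against the earlier times, the sham mean was further below its earlier means than the transected mean was above its own. The transected mean of 120.1 at 11 d stood 0.68 ± 0.40 above the transected 4 h mean of 74.7 and 0.49 ± 0.40 above the 12 h mean of 85.7, with overlapping arrays. The sham mean of 24.0 at 11 d stood -1.41 ± 0.40 from the sham 4 h mean of 63.9 and -1.42 ± 0.40 from the 12 h mean of 64.2. All 3 sham arrays at 11 d (16 to 29.8) were below all 6 earlier sham arrays (52.5 to 83.9). Of all probe sets, 2.77% were lower without overlap in sham fish at 11 d than at 4 h, and 6.21% than at 12 h. For c4b the same sham comparisons gave 0.21 ± 0.37 and 0.08 ± 0.37. These changes with time take in the 11 d arrays that chose the genes and have no test.

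The 3 genes did not follow one another from array to array within the transected 11 d group. The array with the highest c4 signal, replicate 1 at 50.0, had the lowest c4b (89.1) and the lowest c6.2 (70.8) of its group. Replicate 3 had the highest c6.2 (234) and c4 at the floor, and replicate 2 the highest c4b (206). Over all 18 arrays Pearson's r was 0.56 between c4 and c4b, 0.53 between c4b and c6.2 and 0.17 between c4 and c6.2. After each group's mean was subtracted these values were -0.38, 0.17 and -0.69, as a description of arrays that share groups. Since c4 was above the floor on only 3 arrays, the values that involve c4 rest on the few groups holding those arrays.

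Of 72 listed symbols of other complement genes, 19 stood for a measured gene, and the brightest probe set was used for c3a.1, c9 and calr, which have several. None passed at any time with limma, and 3 were at the floor on all arrays. At 11 d 10 were higher, 4 lower and 5 equal, with a median log2 difference of 0.02, while 41.5% of 8790 other named genes were higher, with a median of 0. Without both replicate 3 arrays at 11 d, 1 of the 19 passed, the properdin gene cfp. In that setting 26 of all 15502 probe sets passed, against 7 with all arrays.

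Among the initiators, which bind a target or cut C4, c1s.1, masp2 and mbl2 were at the floor on all 18 arrays. c1qc, a chain of the C1q recognition molecule, averaged 26.8 in transected and 23.2 in sham fish at 11 d, a log2 difference of 0.21 ± 0.28 (adjusted p = 1). The protease gene c1s.2 was above the floor on 1 array, with a difference of -0.04. Only c1qc of the 5 initiators was thus measurable on most arrays.

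Genes around the C3 step were mixed at 11 d. cfp encodes properdin, which stabilises the alternative-pathway enzyme that cuts C3. Its signal was 119, 118 and 74.6 in transected fish, against 55.5, 60.3 and 62.3 in sham fish at 11 d. The groups did not overlap, as for 2.73% of all probe sets upward at 11 d, and the log2 difference of 0.78 ± 0.16 did not pass (limma adjusted p = 0.21). Without both replicate 3 arrays it was 1.04 and passed (adjusted p = 0.015), and without the transected one alone it was 1.00 (0.0061). The difference was -0.03 at 4 h and 0.16 at 12 h. c3a.6 and c3a.1, both C3 genes, stood at 0.18 ± 0.15 and -0.39 ± 0.37, with c3a.6 above the floor on 5 arrays and c3a.1 on 11. cfd, the protease that activates factor B, stood at -0.10 ± 0.50. Its sham replicate 1, at 447, lay far above the other sham arrays (102 and 124), and the value was 0.56 without it.

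**Figure D3:**
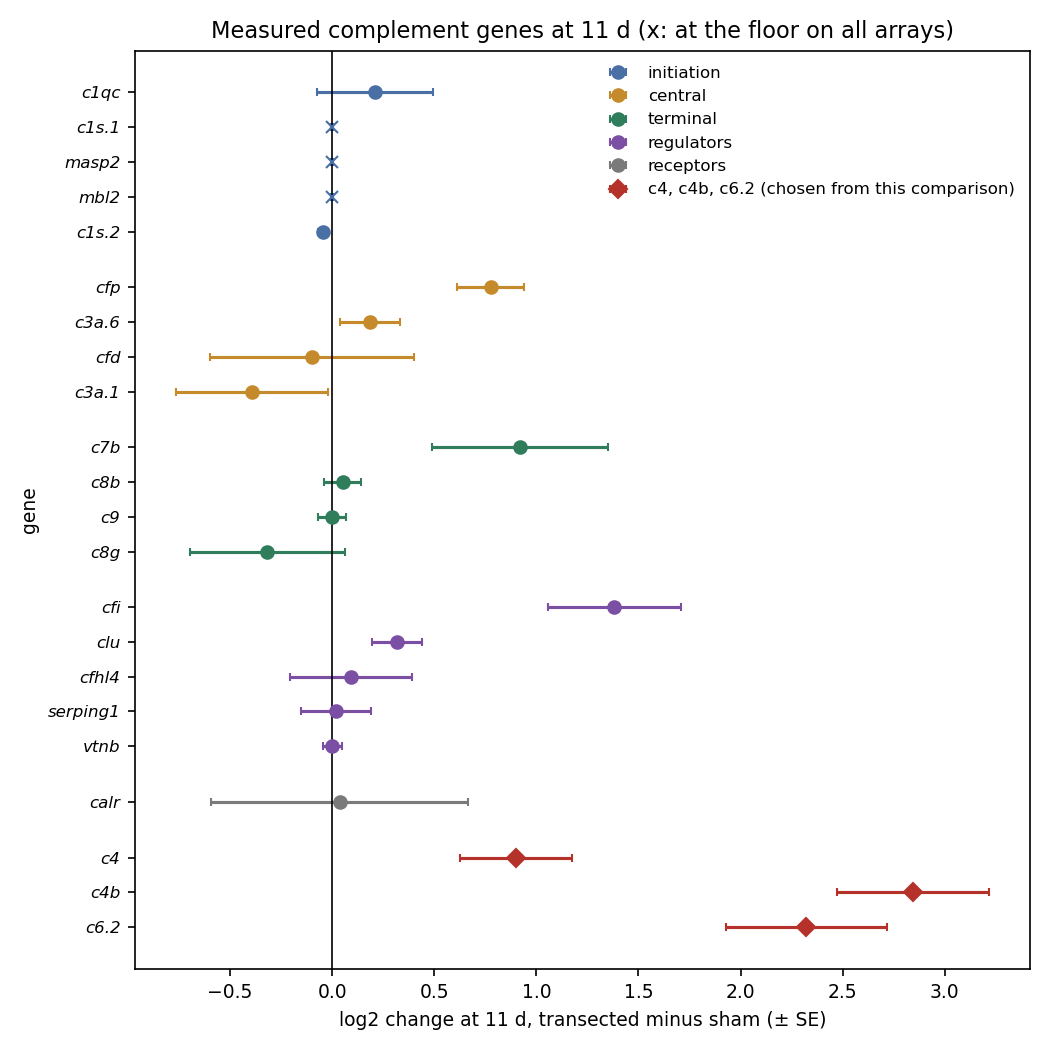
Log2 change at 11 d, transected minus sham, of the 19 other measured complement genes by role and of c4, c4b and c6.2 at the bottom; points are model estimates, bars are ± SE, and crosses are genes at the floor on all arrays. Of the genes not chosen from this comparison, cfi (1.38), c7b (0.92) and cfp (0.78) lie furthest to the right, and none of the 19 passed.

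In the terminal pathway, c7b, which encodes the component added after C6, was higher on average in transected fish at every time. Its signal at 4 h was 476, 275 and 386 in transected fish, against 270, 208 and 162 in sham fish, with no overlap, as for 2.67% of all probe sets upward. At 12 h it was 237, 155 and 530 in transected fish, against 160, 165 and 217 in sham fish. At 11 d it was 486, 239 and 555 in transected fish, against 227, 156 and 268 in sham fish. The groups overlapped at 12 h and 11 d. Its log2 differences were 0.82 ± 0.43, 0.59 ± 0.43 and 0.92 ± 0.43 in that order of times, and none passed (adjusted p = 1 at each). Same-numbered arrays, taken as pairs at 4 h and 11 d, differed by 0.82, 0.40 and 1.25 at 4 h and by 1.09, 0.62 and 1.05 at 11 d, higher in 3 of 3 pairs at both times. The share of all probe sets higher in 3 of 3 pairs was not computed, so nothing is read from this count. With the replicate block the limma adjusted p was 0.85 at 4 h and 0.46 at 11 d. The 12 h value rested on transected replicate 3, without which it was 0.10. c8g stood at -0.32 ± 0.38 at 11 d and c8b and c9 at 0.05 ± 0.09 and 0.00 ± 0.07, with c8b above the floor on 5 arrays and c9 on 2.

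**Figure D4:**
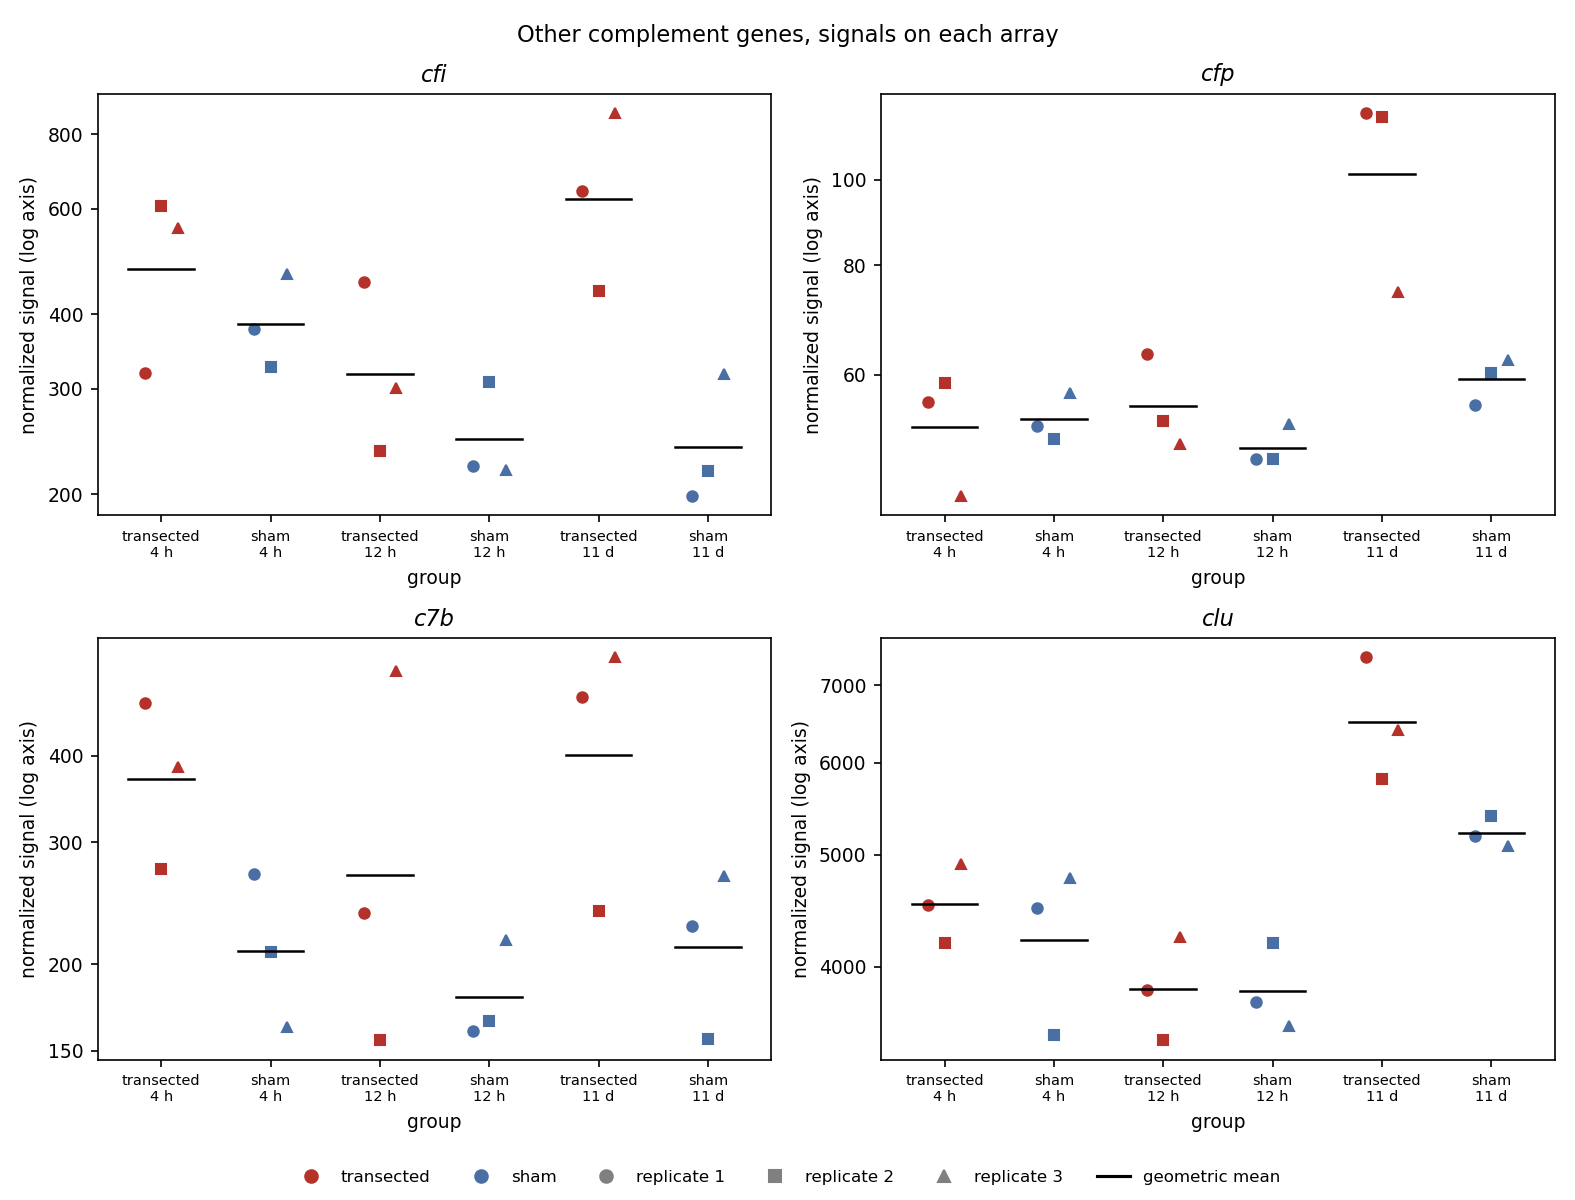
Normalized signal (log axis) of cfi, cfp, c7b and clu on each of the 18 arrays by group; red points are transected and blue points sham arrays, the symbol gives the replicate number and black bars are geometric means (n = 3). At 11 d the transected arrays of cfi (437 to 868), cfp (74.6 to 119) and clu (5811 to 7396) lie above all sham arrays of that time, as for 2.73% of all probe sets.

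Of the regulators, cfi showed the largest difference at 11 d. Factor I, its product, cuts the active fragments of C3 and C4. The signal was 642, 437 and 868 in transected fish, against 198, 219 and 317 in sham fish at 11 d. Groups did not overlap, as for 2.73% of all probe sets upward at 11 d. The log2 difference of 1.38 ± 0.33 did not pass (limma adjusted p = 0.29), nor did it under any alternative. The lowest limma adjusted p among these was 0.067, with the replicate block and 10335 brighter probe sets fitted. With single 11 d arrays left out it was 0.22 to 0.74. At 4 h and 12 h the log2 difference was 0.30 ± 0.33 and 0.37 ± 0.33. clu, or clusterin, a secreted chaperone that binds the membrane attack complex, was at 7396, 5811 and 6402 in transected fish, against 5184, 5398 and 5083 in sham fish at 11 d (0.32 ± 0.12, adjusted p = 0.90). cfhl4 (0.09 ± 0.30), serping1, the C1 inhibitor (0.02 ± 0.17), and vtnb (0.00 ± 0.05) stood close to 0, as did calr, whose product binds C1q (0.04 ± 0.63).

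Markers of leukocytes and microglia, which also make complement proteins, were higher at 11 d in 14 of 19 measured genes, with a median log2 difference of 0.31, and none passed. Of 8790 other named genes, 41.5% were higher at 11 d, with a median of 0. The summed signal of the 19 markers was 10947 to 12737 in transected fish, against 7772 to 9125 in sham fish at 11 d, without overlap. At 12 h 8 of 19 were higher, with a median of -0.03, and the sums overlapped, at 7690 to 8331 in transected fish and 7562 to 9613 in sham fish. At 4 h the sums were 6336 to 11548 in transected fish and 6246 to 10734 in sham fish. The brightest, apoc1 and cd74a, stood at 0.75 ± 0.27 and 0.57 ± 0.30 at 11 d, and lyz, the lysozyme gene of granulocytes and macrophages, was at the floor on all transected arrays there. The c4b difference at 12 h came without a higher leukocyte marker sum and that at 11 d with one. The sum is carried by its brightest genes, and dimmer ones such as ptprc and csf1ra hardly move it. Whether leukocytes had a part in the c4b differences was not tested.

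Markers of liver and plasma proteins were read because the liver makes most circulating complement. Of 16 measured genes, ambp, apobb.1 and fga were at the floor on all 18 arrays, while at 11 d 6 stood higher in transected fish and 3 stood lower, none of them passing, and the median was 0. Their summed signal was 376 to 451 in transected fish and 300 to 339 in sham fish at 11 d, without overlap. The largest differences were those of rbp4, a retinol carrier (1.62 ± 0.34, adjusted p = 0.21), and cp, the copper oxidase ceruloplasmin (1.49 ± 0.38, adjusted p = 0.40). The fibrinogen genes fgb and fgg were at 0.00 ± 0.12 and -0.17 ± 0.13. The brightest 2 of the list were rbp4 and apoa2, an apolipoprotein gene, which stood at 0.29 ± 0.30.

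Other cell types were read in the same way at 11 d. Summed signals overlapped between the arms for neuron, radial glia and oligodendrocyte markers. Radial glia sums were 18110 to 23779 in transected and 19348 to 22379 in sham fish. Oligodendrocyte sums were 13042 to 24120 and 17568 to 25575. Higher were 5 of 9 radial glia, 2 of 5 oligodendrocyte and 7 of 10 neuron genes. Of these, only cyp19a1b of radial glia passed (brightest of 3 probe sets, -3.64 ± 0.47, limma adjusted p = 0.012), as did 0.0452% of all probe sets. Erythrocyte markers, a sign of blood in the tissue, stood lower in all 8 measured genes, as did 4110 of 8790 other named genes. The median of the 8 markers was -0.55. Of the 8, hbae3 and hbbe3 were above the floor on only 5 and 2 of the 18 arrays, and at 11 d on no transected array. In this list alas2, which starts heme production in erythroid cells, was lower, averaging 45.3 in transected and 222 in sham fish (-2.29 ± 0.34, limma adjusted p = 0.033). At 4 h and 12 h alas2 had averaged 93.3 and 79.5 in sham fish and 79.4 and 56.5 in transected fish. The 11 d sham mean was thus above the earlier sham means. gata1a, an erythroid transcription factor, was lower without overlap, as were 2.99% of all probe sets, and did not pass (-1.17 ± 0.23, limma adjusted p = 0.17). The brightest, the globin genes hbaa1 and hbba2, stood at -0.26 ± 0.31 and -0.84 ± 0.75. The summed signal of the list overlapped, at 6704 to 11589 in transected and 8338 to 15195 in sham fish.

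Fibroblast and meningeal markers had a summed signal of 642 to 756 in transected and 399 to 506 in sham fish at 11 d, without overlap. Of the 5 measured, 3 were higher and none passed; the brightest, dcn and fn1b, both matrix protein genes, stood at 0.68 ± 0.27 and 0.41 ± 0.39, and col1a1a was at the floor on all transected arrays there. Endothelial and pericyte markers were lower in 6 of 6 genes, as were 4110 of 8790 other named genes. None of these 6 markers passed, and their median was -0.19. Their sums overlapped, at 655 to 1072 in transected and 838 to 1193 in sham fish. Summed markers of leukocytes, fibroblasts and liver proteins were thus all higher in transected fish at 11 d. The means of the 3 complement genes were higher there too, but the 11 d values chose those genes. Each sum rested on few genes, and no share over all genes was computed for such sums. The fibroblast sum was mostly dcn, at 497 in transected and 310 in sham fish. Much of the leukocyte sum was apoc1 and cd74a. The liver sum differed mainly through rbp4 (1.62) and cp (1.49), while the median log2 difference of that list was 0. The part of any of these lists was not tested.

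Genes were ranked by the similarity of their signals to each member over the 18 arrays, among 8329 named probe sets above the floor on at least 9 arrays. The 5 closest to c4b were si:ch211-183d21.1 (Pearson's r 0.87), steap4, a metalloreductase (0.85), nme2b.2, a nucleoside diphosphate kinase (0.85), nuak2, a protein kinase (0.81), and ddah1, an enzyme that breaks down methylated arginines (0.78). With group means subtracted their r was 0.72, 0.19, 0.40, 0.19 and 0.67. steap4 averaged 133 in transected and 32.8 in sham fish at 11 d, and 81.9 in transected and 29.3 in sham fish at 12 h. si:ch211-183d21.1 averaged 66.5 in transected and 23.0 in sham fish at 11 d, and 51.1 in transected and 23.4 in sham fish at 12 h. All 5 genes had higher transected means at both times, with log2 differences of 0.24 to 1.48 at 12 h and 0.90 to 2.02 at 11 d, which their choice by likeness to c4b favours.

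**Figure D5:**
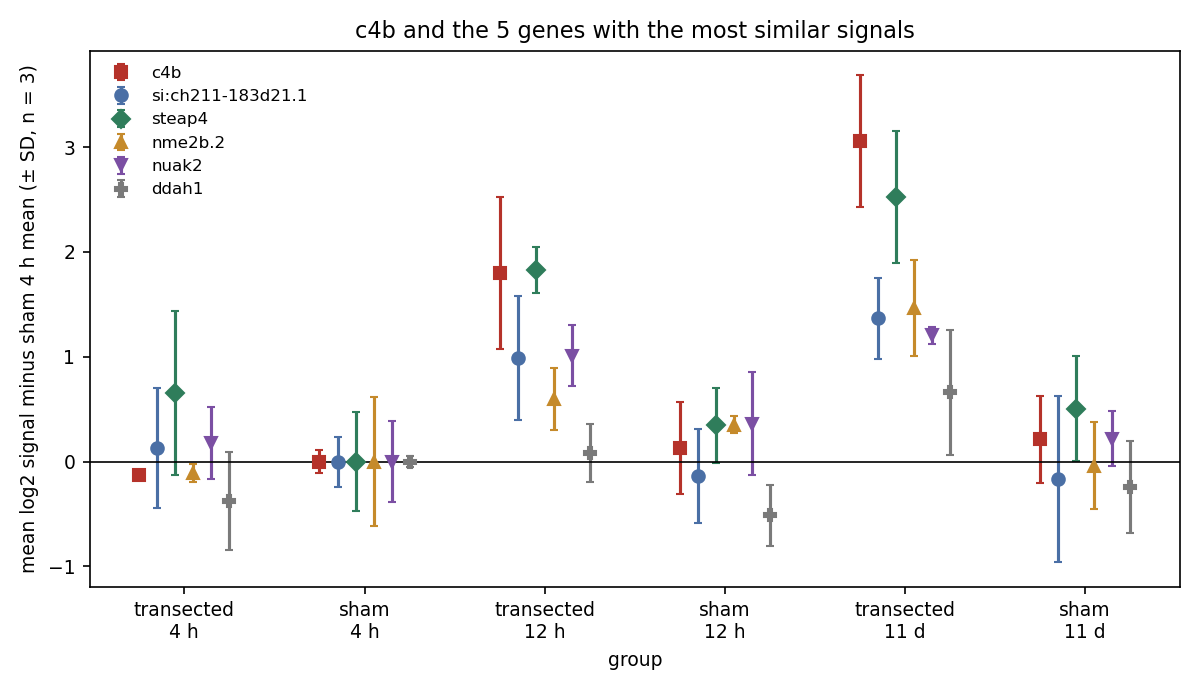
Mean log2 signal of c4b and the 5 genes closest to it by Pearson's r, by group, relative to each gene's sham 4 h mean; bars are ± SD over 3 arrays. In transected fish at 12 h and 11 d the group means of c4b and steap4 stand furthest from their sham 4 h means.

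For c6.2 the closest genes were pih1d2 (r 0.75), fbln1, an extracellular matrix protein (0.69), zgc:153012 (0.68), cp (0.68) and ankrd9 (0.68). cp averaged 44.9 in transected and 16 in sham fish at 11 d. For c4 they were txnb, a thioredoxin (0.88), atf4b, a stress transcription factor (0.87), cfp (0.86), hadhb, a mitochondrial fatty acid enzyme (0.85), and ywhaqa (0.81), but with only 3 arrays of c4 above the floor these values rest on those arrays. The 3 sets of 5 shared no gene.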

How the data were processed

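The authors deposited 1 intensity for each probe set and array, whose values are linear; the sources used here do not name the program that combined probes. Per the labels' protocols, RNA of laser-cut tissue was purified, amplified and turned into biotin-labelled cDNA. The mean intensity after trimming was 92.6 to 150.0, below 110 on the replicate 3 arrays at 4 h. Here intensities were quantile normalized over 18 arrays, set to a floor of 16 and taken to log2. The 115 control probe sets of 15617 were left out of tests. limma 3.58.1 in R 4.3.3 fitted 6 group means to each of the other 15502 (12 residual degrees of freedom). Benjamini-Hochberg adjustment was over all of them, with a threshold of 0.05. The procedure was tried on simulated data with changes placed only in probe sets above the median level. By mean level c4 and c4b lay lower, at percentiles 25.8 and 41.5, so that trial does not cover such genes. Arrays give no count depth, so their number limits the precision.

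Genes were named through the platform's annotation (10795 probe sets with 1 symbol, 135 with several, 4572 with none), 8723 of 8793 genes being found in RefSeq. Probe sequences were not used, so cross-hybridisation between c4 and c4b or between c6 genes could not be examined, and no genome coordinates are given. Members and gene lists were chosen with earlier results of these data known. Named genes are the members, and of other complement genes the 2 highest and 2 lowest of each role at 11 d and a fixed set (C1q, C3, C6 to C9 and cd59 genes where measured); the 5 most similar genes by Pearson's r; and of marker lists the 2 brightest. The markers lyz, cp, fgb, fgg, cyp19a1b, alas2, gata1a and those at the floor were named after their values were seen.

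Replicate numbers are shared between arms. Same-numbered deviations from group means correlated at 0.26 to 0.62 at 4 h and 0.23 to 0.64 at 11 d, so they were taken as pairs at those times, and at -0.01 to 0.14 at 12 h, where they were not. The 11 d pairing was not uniform: transected replicate 1 correlated at 0.23 with its own number and at 0.34 with another. Alternatives were other scalings, floors, filters and moderation, the replicate block, and arrays left out.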

Additional observations from a re-analysis of the deposited data

How the results depend on the processing

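Other scalings, floors, filters and moderation left the direction of the called c4b rise in transected fish between 4 h and 12 h unchanged. With a floor of 32 it was 0.92, with only its own arrays fitted 1.92 (adjusted p = 0.18), and with single arrays left out 1.50 to 2.15. The other tested differences of the members did not pass under any alternative run. The c4b difference at 11 d was 2.18 with a floor of 32 and 2.28 with log2(signal + 16), and that of c4 was 0.23 with a floor of 32. With single arrays left out, the sham change from 4 h to 12 h ranged from -0.13 to 0.25 for c4b and -0.092 to 0.21 for c6.2, and the change in the c6.2 transection effect from -0.0067 to 0.41; the cause was not tested.

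The number of probe sets called moved more. At 4 h it was 2 with a floor of 32, 1 with log2(signal + 16) and 0 to 4 with arrays left out. At 12 h it was 7 on the deposited scale, 0 with log2(signal + 16) or with only the 10335 brighter probe sets, and 4 to 27 with arrays left out, the highest without transected replicate 3 at 12 h. At 11 d it was 14 with a floor of 32 or with log2(signal + 16), 15 with the brighter probe sets, 1 with only its own arrays, 26 without both replicate 3 arrays, and 6 to 21 with arrays left out, the highest without transected replicate 3 at 11 d. Keeping the brighter probe sets removed c4 and all but 8 of the other 19 complement genes, and put their median at 0.20 at 12 h and 0.26 at 11 d, with or without the replicate block. Of those genes 1 passed at 11 d without both replicate 3 arrays and 0 to 1 with arrays left out.

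With the replicate block, c4b at 12 h had the same difference, 1.67 (adjusted p = 0.32), and 2 probe sets passed at 12 h; with only the brighter probe sets 0 passed at 12 h and 43 at 11 d. The block changed no call of a member. The own number gave the best correlation for 7 of 9 transected arrays. Comparisons between times have no block, since it lies within a time.

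Some complement genes near 0 at 11 d changed sign. c8g was 0.20 without both replicate 3 arrays. On the deposited scale, with arrays scaled to one median and with log2(signal + 16), c8b was -0.057, -0.052 and -0.20, and serping1 -0.040, -0.043 and -0.0092. With arrays left out the ranges were -0.50 to 0.56 for cfd, -0.52 to 0.0098 for c8g, -0.057 to 0.11 for c8b, -0.14 to 0.25 for cfhl4, -0.086 to 0.13 for serping1 and -0.33 to 0.30 for calr. Signal near the floor limits c4, which was above it on 3 arrays.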

Other observations

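Genes of cytokine and interferon signalling were listed because such signals act on complement genes in many cell types. Of 12 measured, 10 were higher and 1 lower in transected fish at 11 d, with a median log2 difference of 0.69. At 4 h 9 were higher and at 12 h 9, with medians of 0.42 and 0.22. Among 8790 other named genes, 46.6% were higher at 4 h, 41.6% at 12 h and 41.5% at 11 d. None of the 12 passed at any time with limma. socs3b, a feedback inhibitor of cytokine receptors, averaged 740.2 in transected and 133 in sham fish at 11 d (2.47 ± 0.47, adjusted p = 0.13). cebpd, a transcription factor of the acute-phase response, averaged 1124 in transected and 403 in sham fish (1.48 ± 0.48, adjusted p = 0.64), and isg15, an interferon-induced gene, 73.5 in transected and 21.2 in sham fish (1.80 ± 0.46, adjusted p = 0.40). With irf1b and irf9, 5 of the 12 genes were higher at 11 d without overlap between the arms, as were 2.73% of all probe sets; the list was chosen with earlier results of these data known. The brightest of the list, nfkbiab, an inhibitor of NF-kB, averaged 654 in transected and 963 in sham fish (-0.56 ± 0.25, adjusted p = 1). socs3b, isg15, irf1b and irf9 were named after their values were seen.

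In the gene order of the RefSeq table, c7b is the immediate neighbour of c6.2, and c6.1, not measured here, lies 4 genes away. Of the 5 genes on each side of c6.2, 5 were measured, with log2 differences at 11 d from -0.40 for rnf180b to 0.92 for c7b. Around c4 2 of 10 were measured, at -0.00 and 0.26, and around c4b none.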
